A study of Mus musculus with 16 samples.

Results

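The genes described here are 10 of the 16091 genes in a table of normalized counts from mouse inguinal white adipose tissue (iWAT), the subcutaneous fat pad of the groin. They encode the enzymes that build triglyceride and an enzyme that supplies its glycerol backbone, and were taken by symbol: Gpam, Gpat3, Gpat4, Agpat2, Lpin1, Dgat1, Dgat2, Mogat1, Mogat2 and Pck1. All 10 were found and all 10 passed the filter on low values. RNA was sequenced from C57BL6/J mice in 16 libraries. The diet was either the control diet or a high-fat one, and mice were left untreated or given an antibody against PDGFcc (AF1447), which makes 4 groups with 4 libraries in each. PDGFcc is a platelet-derived growth factor ligand whose receptor PDGFRA is found on fat cell progenitors. The antibody was injected into the peritoneum at 50 mg/kg, in a volume of 100 µl, every 2 days for 2 weeks, starting at 6 weeks of age. The labels state neither how long the diets lasted, nor whether untreated mice were injected, nor whether each library came from its own animal. The p-values therefore reflect only how far these libraries differ, which may be technical in part.

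Fat cells store energy as triglyceride, which is made by adding fatty acyl chains to a glycerol backbone. In the glycerol phosphate pathway a glycerol-3-phosphate acyltransferase (GPAT) adds the first chain, an acylglycerophosphate acyltransferase (AGPAT) adds the next, a lipin removes the phosphate to give diacylglycerol, and a diacylglycerol acyltransferase (DGAT) adds the last chain. Monoacylglycerol acyltransferases (MOGAT) reach diacylglycerol by a shorter route, and phosphoenolpyruvate carboxykinase, encoded by Pck1, feeds glyceroneogenesis, the making of glycerol 3-phosphate from non-sugar precursors. Loss of AGPAT2 causes generalized lipodystrophy in people, and lipin 1 is absent in a fat-deficient mouse strain.

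RefSeq promoter sequences on GRCm38.p6 were at hand for 6 of the 10 genes. They are shown for Gpam and Agpat2, which were lower on the high-fat diet, and for Pck1, which was the most abundant of the genes per length and passed no test. Each run gives the 250 bases before the start of transcription, 5′ to 3′ on the strand of the gene, at chr19:55127239-55127488 (minus strand) for the first of 2 Gpam starts, chr2:26604418-26604667 (minus strand) for Agpat2 and chr2:173152823-173153072 (plus strand) for Pck1. Capitals mark a match to a searched motif (ATTGG in Gpam is CCAAT read on the other strand).
Gpam: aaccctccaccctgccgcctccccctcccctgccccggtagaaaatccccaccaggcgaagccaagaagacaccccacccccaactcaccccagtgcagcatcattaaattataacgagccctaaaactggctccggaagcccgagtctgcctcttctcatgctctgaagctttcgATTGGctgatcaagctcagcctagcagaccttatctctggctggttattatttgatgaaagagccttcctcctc
Agpat2: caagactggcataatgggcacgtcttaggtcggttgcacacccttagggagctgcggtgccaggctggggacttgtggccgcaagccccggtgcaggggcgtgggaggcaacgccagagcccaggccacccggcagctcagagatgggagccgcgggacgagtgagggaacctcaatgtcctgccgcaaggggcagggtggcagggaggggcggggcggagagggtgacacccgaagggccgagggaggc
Pck1: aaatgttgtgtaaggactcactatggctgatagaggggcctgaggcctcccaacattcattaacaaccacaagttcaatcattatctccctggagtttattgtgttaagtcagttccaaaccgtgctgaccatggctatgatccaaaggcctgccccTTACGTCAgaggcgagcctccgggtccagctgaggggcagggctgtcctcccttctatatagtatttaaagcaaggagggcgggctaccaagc
The motifs, searched on both strands, were TTACGTCA and TGACGTCA (cAMP response elements), CACGTG (E-box), CCAAT, TNAAGGTCA (an estrogen-related receptor element) and TCACNCCAC (a sterol regulatory element), and no motif is contained in another. The Pck1 window holds TTACGTCA, beginning 93 bases before the start, which 0.447% of 32851 promoter windows of the same length hold. Gpam holds CCAAT on the reverse strand, 74 bases before its first start, as do 33.9% of the windows on either strand. The other motifs, which 1.55% (TGACGTCA), 6.02% (CACGTG), 1.14% (TNAAGGTCA) and 1.05% (TCACNCCAC) of windows hold, had no match in the windows of Gpam, Gpat3, Agpat2, Lpin1, Mogat1 and Pck1, and the Agpat2 window had no match at all. These matches describe letters in a window only.

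The libraries summed to 24.02 to 28.15 (in 1e6 normalized counts), and the read depth behind them is unknown. The mature adipocyte markers were high throughout: 10 of 10 were in the table and their summed level lay between 850200 and 1134100 normalized counts. Fabp4 and Cfd had the highest medians among them. Adipoq lay between 78008 and 97146, but other markers varied more, as Slc2a4 (4504 to 12736) and Lep (7059 to 61892). Certain libraries stood apart. Untreated high-fat replicate 2 had a summed level of 12 skeletal muscle markers of 595620 normalized counts, against 167 to 198390 in the other libraries. That sum was 272 to 37900 in untreated and 36302 to 198390 in antibody control-diet libraries, and 167 to 9489 in antibody high-fat libraries. The summed level of 10 brown or beige adipocyte markers was 5317, 22030, 91673 and 44818 in untreated control-diet replicates 1 to 4, and 58966, 26992, 19674 and 14057 with antibody. On the high-fat diet that sum was 18951, 3026, 4430 and 3632 without antibody and 18766, 8965, 2754 and 18056 with it, so it was lower in 3 of 4 untreated high-fat libraries than in any control-diet library. The sum of 9 adipose progenitor markers was 75763 in untreated control-diet replicate 1, the highest of the 16 libraries, 31668 to 43084 in the other 3 of that group and 49210 to 67198 in the untreated high-fat group. With antibody it was 37876 to 51364 on the control diet and 44665 to 58719 on the high-fat diet. The sum of 7 macrophage markers was 23402 to 46602 in untreated control-diet and 29943 to 52295 in untreated high-fat libraries. Mammary and skin epithelium markers were not analysed here. The main values below are also given without untreated control-diet replicate 3, the highest in brown or beige markers, and untreated high-fat replicate 2, the highest in muscle markers.

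Per kilobase of annotated exon, the median level over the 16 libraries ran from 26239 normalized counts per kb for Pck1 to 27.2 for Mogat2. Dgat2 (13604) and Agpat2 (9495) followed Pck1. Of the 14185 tested genes with an annotated length, 99.9% were below Pck1, 99.7% below Dgat2 and 99.5% below Agpat2. The middle of the order was Dgat1 (2586), Lpin1 (1428), Gpam (1139), Gpat4 (1061) and Gpat3 (673), all in normalized counts per kb. Within libraries, the order was not fixed for Lpin1 and Gpam (Lpin1 above in 11 of 16) or for Gpam and Gpat4 (Gpam above in 9 of 16). Lpin1 was above Gpat4 in 15 of 16, and Gpat4 above Gpat3 in 15 of 16. Mogat1 (330) was above 77.6% and Mogat2 above 19.4% of tested genes. Within enzyme families, Dgat2 was 4.88 ± 0.53, 5.50 ± 0.68, 4.57 ± 1.37 and 6.37 ± 1.88 times Dgat1 per kb (SD, n = 4) in the untreated control-diet, antibody control-diet, untreated high-fat and antibody high-fat groups. Among the 3 GPAT genes, the share of Gpam per kb was 46.7% ± 9.8, 42.9% ± 4.3, 35.1% ± 4.9 and 38.0% ± 4.5 (SD, n = 4) in the same order of groups.

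**Figure D1:**
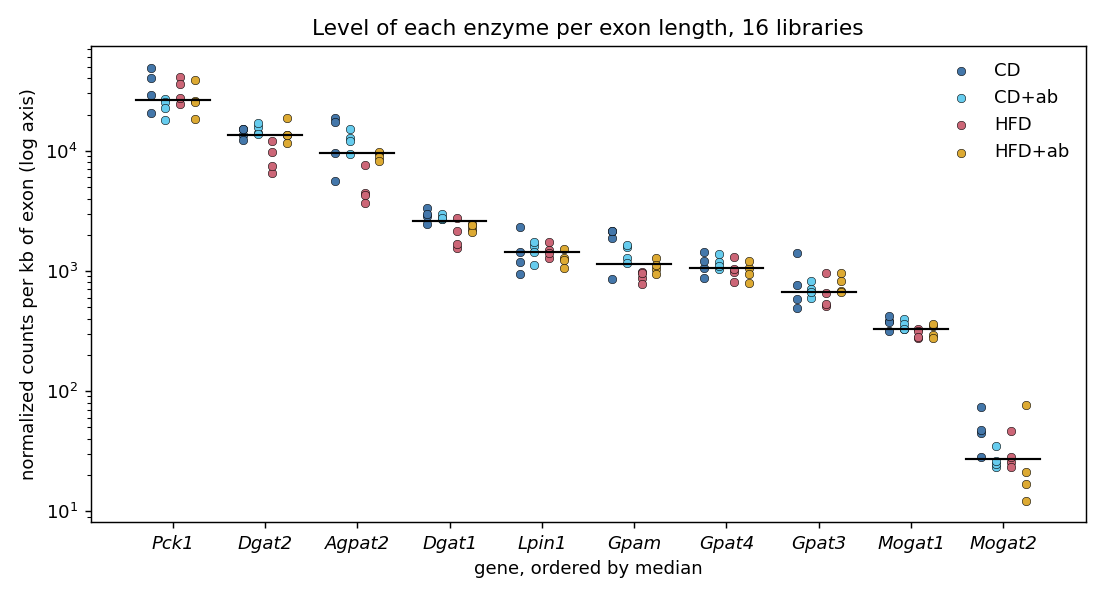
Level of each gene in normalized counts per kb of annotated exon (log axis), 1 point per library, coloured by group (CD, control diet; HFD, high-fat diet; ab, antibody), with a bar at the median of the 16 libraries. Pck1, Dgat2 and Agpat2 lead, and Mogat2 lies lowest at a median of 27.2.

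The diet comparison asks what the high-fat diet changed. Differences are high-fat minus control diet, or antibody minus untreated, on the log2(normalized counts + 1) scale, and adjusted p-values are from limma with Benjamini-Hochberg adjustment over all genes tested, with a threshold of 0.05. Without antibody, 4 of the 10 genes fell and 0 rose: Agpat2, Gpam, Dgat1 and Dgat2, one enzyme each for the first and next acyl additions and both for the last. Among all 14189 genes tested in limma, 8.15% passed in either direction (734 fell, 423 rose), and 30.3% had an unadjusted p under 0.05. The median log2 difference was -0.43 for the 10 genes and 0.02 for all genes, and 9 of 10 were on the lower side against 46.9% of all genes. In bulk tissue, fewer cells of a type and less RNA per cell cannot be told apart.

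Agpat2 encodes the AGPAT that adds the next chain to the GPAT product (ENSMUSG00000026922, GRCm38 chromosome 2, 26593057 to 26604417), and its promoter is printed above. Its normalized counts were 12041, 20378, 39893 and 36961 on the control diet, 32479, 26985, 20069 and 25478 with antibody, 16265, 7848, 9516 and 9180 on the high-fat diet, and 20471, 20955, 18955 and 17546 on the high-fat diet with antibody. Of the untreated high-fat libraries, 3 lay below all untreated control-diet libraries and replicate 1 lay among them. The group means were 27318 ± 13325 and 10703 ± 3778 (SD, n = 4), a log2 difference of -1.25 ± 0.31 (SE; 95% interval -1.92 to -0.59; adjusted p = 0.0362). The exact two-sided permutation p was 0.0571. In both untreated groups, but neither antibody group, Agpat2 ranked the libraries in the same order as the summed brown or beige markers. The part of those cells, or of the muscle, macrophage and progenitor signal, in any result below was not tested. Within the untreated control-diet group Agpat2 spanned 3.31-fold, and in the antibody high-fat group 1.19-fold. Agpat2 shares 64 exon bases with Egfl7 on the opposite strand, and whether reads were counted by strand is not stated.

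Gpam encodes the mitochondrial GPAT (ENSMUSG00000024978, chromosome 19, 55067268 to 55127238). It was measured at 5707, 12426, 14365 and 14209 normalized counts on the control diet and 5850, 5144, 6501 and 6377 on the high-fat diet. With antibody it was 10531, 10960, 8506 and 7734 on the control diet and 6861, 8608, 6299 and 7447 on the high-fat diet. The high-fat libraries were close together, and the untreated control-diet group held a single low library, replicate 1, that overlapped them. The log2 difference without antibody was -0.88 ± 0.23 (SE; 95% interval -1.38 to -0.39; adjusted p = 0.0393), from 11677 ± 4076 to 5968 ± 618 (SD, n = 4). The exact two-sided permutation p was 0.114, and only 1 untreated high-fat library lay below all untreated control-diet libraries. Without untreated control-diet replicate 1 the log2 difference was -1.20 (adjusted p = 0.000662). Leaving out any other untreated control-diet library instead ended the call.

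The other GPAT genes passed no test. Gpat4 and Gpat3 encode GPATs of the endoplasmic reticulum (ENSMUSG00000031545, chromosome 8, 23171265 to 23208346, and ENSMUSG00000029314, chromosome 5, 100845713 to 100899102). Gpat4 was measured at 5778, 7083, 9503 and 8015 on the control diet and 8677, 5440, 6571 and 6861 on the high-fat diet, a log2 difference of -0.14 (95% interval -0.50 to 0.22). With antibody its libraries read 9221, 7913, 6975 and 7402 on the control diet and 7093, 6335, 5336 and 8143 on the high-fat diet. The 4 groups of Gpat4 overlapped one another. Gpat3 was measured at 2684, 1726, 4940 and 2027 on the control diet and 3343, 1783, 1844 and 2303 on the high-fat diet, a log2 difference of -0.22 (95% interval -0.80 to 0.36). With antibody Gpat3 read 2463, 2083, 2313 and 2908 on the control diet and 3386, 2379, 2881 and 2332 on the high-fat diet. Its untreated control-diet replicate 3, at 4940, was the highest of the 16 libraries. Gpat3 shares 1052 exon bases with 4930458D05Rik on the opposite strand, so its level is uncertain to that extent.

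Lpin1 encodes lipin 1, the phosphatidate phosphatase (ENSMUSG00000020593, chromosome 12, 16535669 to 16610966). Its libraries read 9027, 11456, 22520 and 13934 on the control diet and 16817, 14404, 12421 and 13665 on the high-fat diet. With antibody they read 15673, 13970, 10812 and 16715 on the control diet and 10132, 12339, 14558 and 11796 on the high-fat diet. The high-fat libraries lay inside the range of the control-diet libraries, which 1 library, replicate 3, widened. The untreated group means were 14234 ± 5876 and 14327 ± 1851 (SD, n = 4), a log2 difference of 0.09 ± 0.22 (SE; 95% interval -0.39 to 0.56).

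Dgat2 encodes the more abundant of the enzymes for the last step (ENSMUSG00000030747, chromosome 7, 99153658 to 99182719). It was measured at 41909, 38003, 47116 and 46516 on the control diet and 37291, 30394, 20307 and 22988 on the high-fat diet. Its highest untreated high-fat library was below its lowest untreated control-diet library (exact two-sided permutation p = 0.0286, the smallest that 4 against 4 allows), as was so in either direction for 9.73% of all genes. The log2 difference was -0.68 ± 0.18 (SE; 95% interval -1.07 to -0.29; adjusted p = 0.0413), from 43386 ± 4276 to 27745 ± 7661 (SD, n = 4). With antibody it was measured at 43323, 48904, 42772 and 52787 on the control diet and 35445, 41972, 58288 and 41682 on the high-fat diet. Of the antibody high-fat libraries, replicate 1 lay below every control-diet library and replicate 3 was the highest of the 16. Replicates 2 and 4 lay within the range of the control-diet groups.

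Dgat1 encodes the other DGAT, an enzyme unrelated to DGAT2 in sequence (ENSMUSG00000022555, chromosome 15, 76502015 to 76511953). It was measured at 7544, 8715, 10219 and 9037 on the control diet and 8410, 4726, 6614 and 5087 on the high-fat diet. Replicate 1 of the high-fat group lay among the control-diet libraries and the other 3 lay below them. The log2 difference was -0.55 ± 0.14 (SE; 95% interval -0.85 to -0.24; adjusted p = 0.04), from 8879 ± 1100 to 6209 ± 1680 (SD, n = 4). The exact two-sided permutation p was 0.0571. With antibody Dgat1 read 9023, 8305, 8259 and 8343 on the control diet and 7474, 6847, 6378 and 7329 on the high-fat diet, and here the diet groups did not overlap, with the high-fat libraries lower (exact two-sided permutation p = 0.0286). Such a separation was found for 15.5% of all genes in that comparison, and its log2 difference, -0.28, did not pass in limma (adjusted p = 0.323).

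The MOGAT genes were low. Mogat1 (ENSMUSG00000012187, chromosome 1, 78510991 to 78538173) was measured at 495.8, 600.4, 580.1 and 653.0 on the control diet and 513.7, 430.5, 491.8 and 439.8 on the high-fat diet. With antibody it read 509.8, 618.4, 559.1 and 514.8 on the control diet and 537.8, 558.1, 453.7 and 427.5 on the high-fat diet. In each pair of diet groups the ranges overlapped, and the log2 difference without antibody was -0.31 ± 0.11 (SE; adjusted p = 0.0774). Mogat1 shares 200 exon bases with BC035947 on the opposite strand. Mogat2, which lies next to Dgat2 on the chromosome (ENSMUSG00000052396, chromosome 7, 99219084 to 99238619), was measured at 134.2, 52.0, 81.53 and 86.07 on the control diet and 84.78, 47.34, 43.06 and 51.65 on the high-fat diet. With antibody its libraries read 42.74, 45.23, 48.09 and 64.01 on the control diet and 30.67, 22.42, 139.2 and 38.66 on the high-fat diet. Single high libraries set its group spreads, and its log2 difference without antibody was -0.61 with a 95% interval from -1.54 to 0.33.

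Pck1 (ENSMUSG00000027513, chromosome 2, 173153048 to 173159273) was measured at 99994, 138889, 168999 and 70732 normalized counts on the control diet and 141391, 83419, 123918 and 94329 on the high-fat diet. With antibody it read 91709, 61729, 88072 and 78517 on the control diet and 88236, 88066, 62918 and 133949 on the high-fat diet. Its groups overlapped in all 4 pairwise comparisons. The log2 difference for diet without antibody was -0.07 ± 0.28 (SE; 95% interval -0.67 to 0.53).

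**Figure D2:**
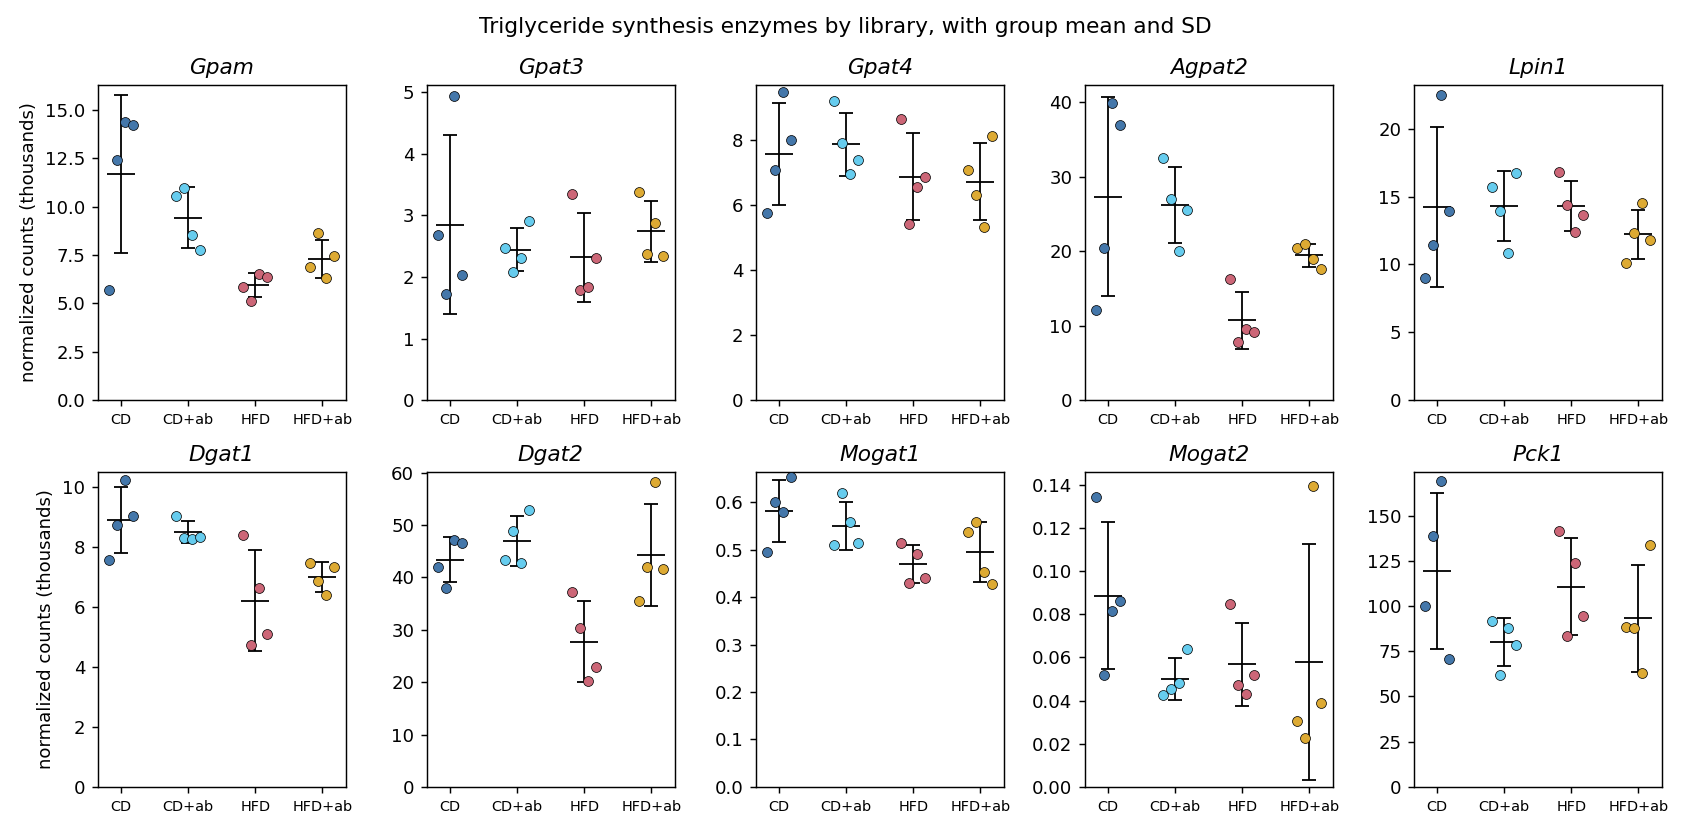
Normalized counts (in units of 1e3, linear axes from 0) of each gene in each library, in 4 groups (CD, control diet; HFD, high-fat diet; ab, antibody), with bars at the group mean and whiskers of 1 SD (n = 4). The untreated high-fat group lies lowest for Agpat2, Gpam, Dgat1 and Dgat2, and Lpin1 and Pck1 overlap across groups.

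The 4 calls without antibody rested on few libraries. None of the 10 genes passed without untreated control-diet replicate 2, 3 or 4 or untreated high-fat replicate 2, 3 or 4, each left out in turn, and only Agpat2 passed without antibody control-diet replicate 2 or 3 or antibody high-fat replicate 2 or 4. Mogat1 joined the 4 without untreated control-diet replicate 1, which made 5 (adjusted p = 0.0165 for Mogat1). Without both replicate 3 of the untreated control diet and replicate 2 of the untreated high-fat diet, the log2 differences were -0.89 for Agpat2 (adjusted p = 0.212), -0.68 for Gpam (0.222), -0.36 for Dgat1 (0.232) and -0.70 for Dgat2 (0.181), and 0 of all genes passed. When only the 2 untreated groups were fitted, 0 of the 10 genes passed, so the calls depended on the antibody libraries being in the fit. Those libraries add to the estimate of spread and to its degrees of freedom, and the part of each was not tested.

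With antibody, the diet comparison called 0 of the 10 genes in limma (0 at an unadjusted p under 0.05), where 0.00705% of all genes passed and 18.1% had an unadjusted p under 0.05. The exact permutation test put 1 gene, Dgat1, at its smallest p. The log2 differences were -0.41 for Agpat2 (95% interval -1.08 to 0.26), -0.36 for Gpam (-0.86 to 0.13) and -0.10 for Dgat2 (-0.49 to 0.29). Whether the diet effect differed with the antibody was tested by the interaction, in which 0 of the 10 genes and 0% of all genes passed. There 1 of the 10 genes, Dgat2, and 6.18% of all genes had an unadjusted p under 0.05. The interaction term, the diet effect with antibody minus that without, was 0.58 for Dgat2 (95% interval 0.03 to 1.13; adjusted p = 0.789) and 0.84 for Agpat2 (95% interval -0.10 to 1.79; adjusted p = 0.864). Without replicate 3 of the untreated control diet and replicate 2 of the untreated high-fat diet these terms were 0.60 and 0.48 (adjusted p = 0.999 for both). A difference between the diet effects with and without antibody was thus not shown for any of the 10 genes.

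Averaged over the antibody groups, which uses all 16 libraries, 5 of the 10 genes fell on the high-fat diet and 0 rose, where 19.4% of all genes passed in either direction. Dgat1 differed by -0.41 ± 0.10 on the log2 scale (SE; adjusted p = 0.0162), Gpam by -0.62 ± 0.16 (0.02) and Agpat2 by -0.83 ± 0.22 (0.0206). These 3 passed in all 16 fits that leave out a single library. Mogat1, at -0.23 ± 0.08 (adjusted p = 0.0428), and Dgat2, at -0.39 ± 0.13 (adjusted p = 0.0472), did not: without antibody control-diet replicate 2, for example, their adjusted p were 0.0905 and 0.0854. Dgat2 passed only without untreated control-diet replicate 1, untreated high-fat replicate 1 or antibody high-fat replicate 3. Mogat1 passed without untreated control-diet replicate 1, antibody control-diet replicate 4, untreated high-fat replicate 1 or antibody high-fat replicate 1 or 2. Without replicate 3 of the untreated control diet and replicate 2 of the untreated high-fat diet together, Dgat1 alone passed (-0.32, adjusted p = 0.0475), and Agpat2 (-0.65, 0.0654), Gpam (-0.52, 0.0655), Dgat2 (-0.40, 0.0823) and Mogat1 (-0.21, 0.105) kept their direction. Lpin1, Gpat3, Gpat4, Mogat2 and Pck1 did not pass, with log2 differences from -0.38 (Mogat2) to 0.06 (Pck1).

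**Figure D3:**
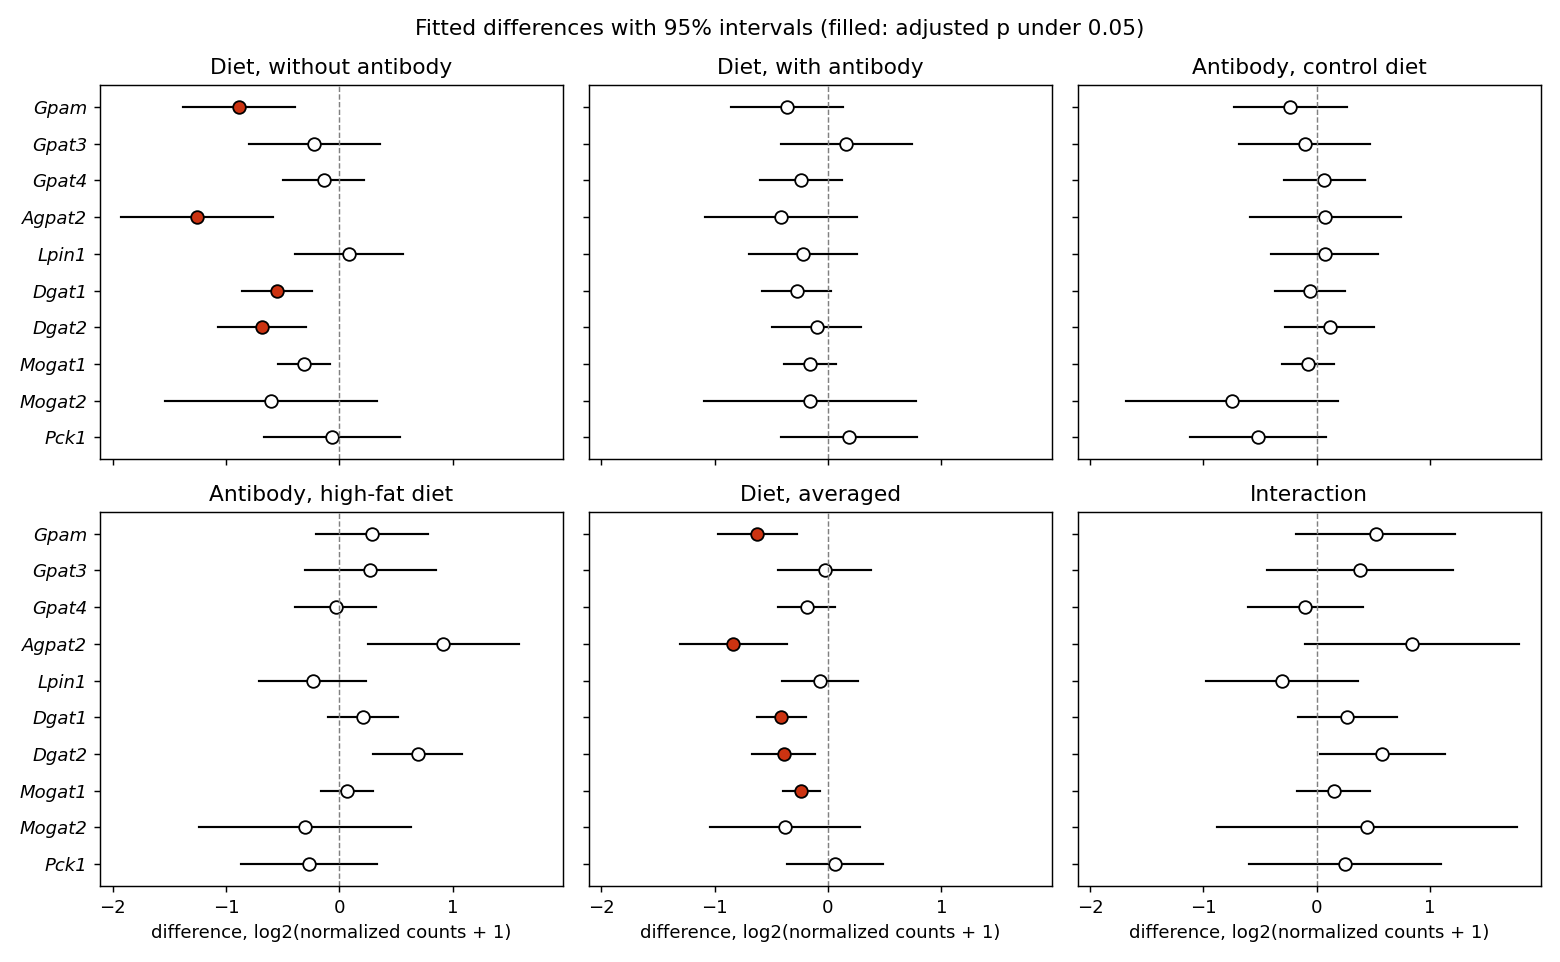
Fitted difference of each gene on the log2(normalized counts + 1) scale with its 95% interval in 6 contrasts, filled where the adjusted p was under 0.05. The filled points lie below 0 and only in the diet contrast without antibody (4 genes) and in its average over antibody (5 genes).

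The antibody comparisons ask what the antibody against PDGFcc changed on each diet. On the high-fat diet 0 of the 10 genes passed in limma, where 0.0775% of all genes did, and 2 of the 10 had an unadjusted p under 0.05, against 13.5% of all genes. These were Dgat2 and Agpat2. Dgat2 was 44347 ± 9770 with antibody and 27745 ± 7661 without (SD, n = 4), a log2 difference of 0.69 ± 0.18 (SE; 95% interval 0.30 to 1.08; adjusted p = 0.142). Agpat2 was 19481 ± 1546 with antibody and 10703 ± 3778 without, a log2 difference of 0.92 ± 0.31 (SE; 95% interval 0.25 to 1.59; adjusted p = 0.205). All 4 antibody libraries of Agpat2 lay above all 4 untreated ones (exact two-sided permutation p = 0.0286), as did 3 of 4 for Dgat2, and 7.38% of all genes had groups that did not overlap in either direction. The untreated high-fat libraries enter both this comparison and the diet comparison without antibody. Without untreated high-fat replicate 1, Dgat2 passed (0.85, adjusted p = 0.028), and with libraries weighted by their quality in limma both did (Dgat2 0.78, adjusted p = 0.00973; Agpat2 1.02, adjusted p = 0.014). These were the only passes among 26 alternatives, 2 for Dgat2 and 1 for Agpat2, and the adjusted p reached 0.357 and 0.445 without untreated high-fat replicate 3. Without replicate 3 of the untreated control diet and replicate 2 of the untreated high-fat diet, Dgat2 differed by 0.75 (adjusted p = 0.138) and Agpat2 by 0.79 (adjusted p = 0.262). The remaining 8 genes had log2 differences from -0.31 (Mogat2) to 0.29 (Gpam).

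On the control diet 0 of the 10 genes passed in limma, where 0.0987% of all genes did, 0 had an unadjusted p under 0.05 (11.6% of all genes had) and 0 had groups that did not overlap (6.77% of all genes did). The largest differences were those of Mogat2, -0.75 (95% interval -1.68 to 0.19), and Pck1, -0.52 (95% interval -1.12 to 0.08). Dgat2 differed by 0.11 (-0.28 to 0.51) and Agpat2 by 0.08 (-0.59 to 0.75). Averaged over diet, 0 of the 10 genes passed and 2.52% of all genes did. Dgat2 and Agpat2 had an unadjusted p under 0.05 there, as had 16.8% of all genes, with log2 differences of 0.40 ± 0.13 (SE; adjusted p = 0.12) and 0.50 ± 0.22 (SE; adjusted p = 0.269). Without untreated high-fat replicate 1 the averaged difference of Dgat2 was 0.48 (adjusted p = 0.0386), and with weighted libraries Dgat2 (0.51, adjusted p = 0.0062) and Agpat2 (0.62, adjusted p = 0.0144) passed. In the other alternatives neither did, with adjusted p up to 0.242 for Dgat2 and 0.409 for Agpat2, and without replicate 3 of the untreated control diet and replicate 2 of the untreated high-fat diet they were 0.45 (0.106) and 0.55 (0.182).

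Some of the 10 genes varied together across libraries and others did not. Untreated control-diet replicate 3 was above the mean of the 16 libraries for 10 of 10 genes and the highest of its group for 8. Untreated high-fat replicate 1 was the highest of its group for 9 of 10, and replicates 2, 3 and 4 of that group were below the mean of the 16 libraries for 9 of 10 each. Over the 16 libraries, which include the diet and antibody groups, the log2 values of Agpat2 and Dgat1 correlated at Pearson r = 0.850 (Spearman rho = 0.774) and those of Gpam and Agpat2 at r = 0.834 (rho = 0.868). Pck1 correlated weakly with these, at r = -0.07 to Agpat2, 0.09 to Gpam and 0.26 to Dgat1, and its r to the other members ran from -0.33 (Dgat2) to 0.41 (Gpat4). These values describe 16 libraries that share groups and library composition.

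**Figure D4:**
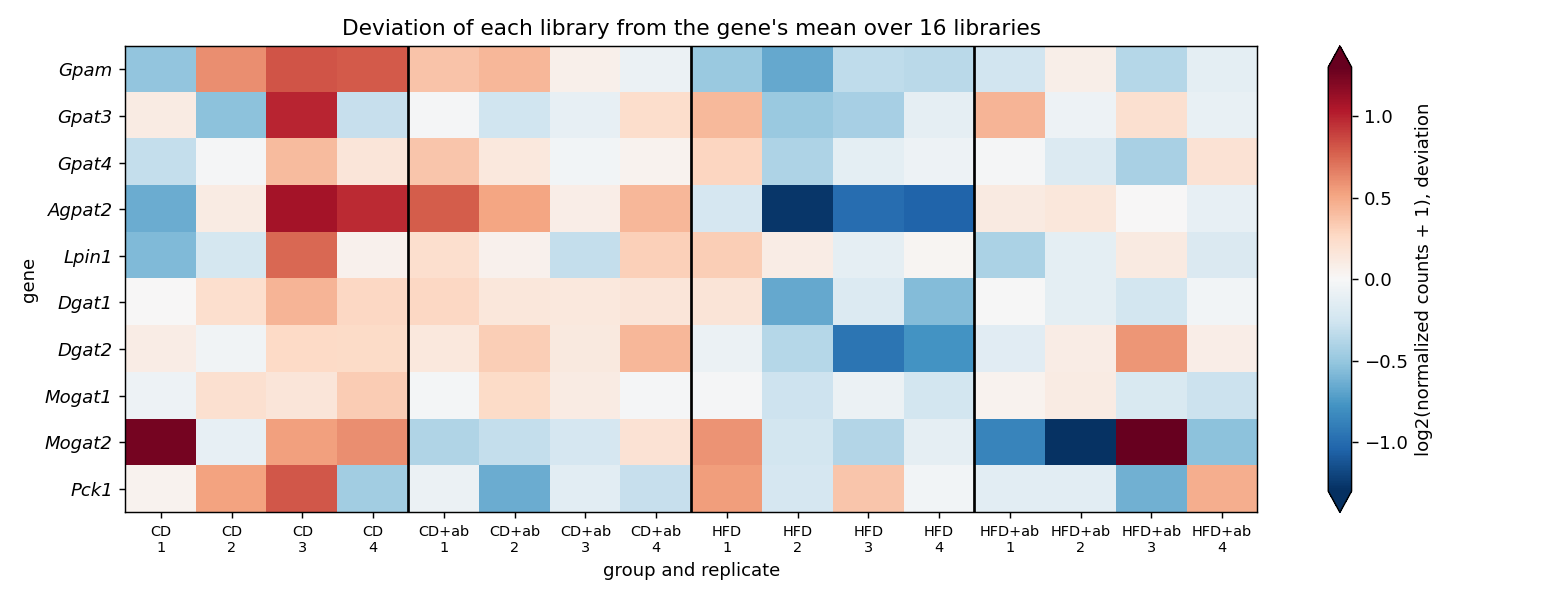
Deviation of each library from the mean of a gene over the 16 libraries, on the log2(normalized counts + 1) scale, with genes in rows and libraries in columns (CD, control diet; HFD, high-fat diet; ab, antibody), the colour scale ending at the arrows. Untreated control-diet replicate 3 is above the mean for 10 of 10 genes, and untreated high-fat replicates 2, 3 and 4 are below it for 9 of 10 each.

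The genes with the most similar pattern over the 16 libraries were found by Pearson correlation of log2 values among all tested genes. For Gpam they were Elovl5, a fatty acid elongase (r = 0.973), Poldip2 (0.962) and Rrn3 (0.953), and those like Agpat2 included Pmm1 (0.965) and Ppp2r5a (0.963). Dgat1 was most like Pex11a (0.947) and Pex16 (0.939), which encode peroxisome proteins, and Bcl7b (0.927). For Dgat2 they were A530016L24Rik (0.963), Acp6 (0.944) and Snapin (0.910), and for Gpat4 they were Miga2 (0.926), Slc4a4 (0.925) and Fam83g (0.925). The highest r was 0.897 for Lpin1 (Dcbld1) and Mogat1 (Naa38) and 0.880 for Mogat2 (B3glct), and the genes like Pck1 included Zkscan3 (0.879). The gene most like Gpat3, at 0.869, was 4930458D05Rik, which overlaps its exons.

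Other genes of the pathway were read from 6 lists, over the same tests, in which 8.15% of all genes passed for diet without antibody and 19.4% in the diet average. Of 13 tested genes that supply acyl-CoA and glycerol 3-phosphate, 3 fell on the high-fat diet without antibody and 0 rose (median log2 difference -0.61, against 0.02 for all genes). They were Pcx, pyruvate carboxylase (-0.90 ± 0.17, SE; adjusted p = 0.0149), Mdh1, cytosolic malate dehydrogenase (-0.63 ± 0.14; 0.0291), and Aqp11, an aquaporin (-0.84 ± 0.20; 0.0323). All 4 untreated high-fat libraries of Pcx (42407, 31922, 40325 and 30875 normalized counts) lay below the untreated control-diet libraries (47503, 70012, 76699 and 79532). Groups that did not overlap, in either direction, were found for 9.73% of all genes in that comparison. Averaged over antibody, 4 of the 13 fell and 1, Pck2, the mitochondrial carboxykinase, rose (0.28 ± 0.07; adjusted p = 0.014). The fourth to fall was Gpd1, glycerol-3-phosphate dehydrogenase (adjusted p = 0.0394), named after its value was seen.

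Of 15 tested acyltransferases and phosphatases related to these enzymes, 2 rose without antibody and 0 fell: Plpp1, a lipid phosphate phosphatase (0.51 ± 0.12, SE; adjusted p = 0.03), and Lpin3, another lipin (0.53 ± 0.15; 0.0447). The averaged diet comparison added Soat1, which esterifies cholesterol (0.50 ± 0.15; 0.0356), and a fall of Agpat1, the widely expressed AGPAT (-0.32 ± 0.08; 0.0137). Of 17 genes of the phospholipid branch, which leaves the pathway at phosphatidate or diacylglycerol, 2 fell without antibody and 0 rose: Pcyt2, of phosphatidylethanolamine synthesis (-0.79 ± 0.19, SE; adjusted p = 0.0323), and Chpt1, a cholinephosphotransferase (-0.67 ± 0.19; 0.0457). Pemt, which methylates phosphatidylethanolamine, joined them in the average (-0.23 ± 0.07; 0.0348).

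Of 12 lipid droplet genes 0 passed without antibody, and 5 had an unadjusted p under 0.05, where 30.3% of all genes did. Averaged over antibody, Plin4, a droplet coat protein, rose (0.58 ± 0.12, SE; adjusted p = 0.00907), and Plin3 (-0.25 ± 0.07; 0.0239) and Cidea (-2.77 ± 0.78; 0.0251) fell. Cidea is also among the brown or beige markers. Of 12 genes of triglyceride breakdown and reverse steps, Dgka, a diacylglycerol kinase, rose without antibody (0.39 ± 0.08; 0.0242). In the average it rose too (0.27 ± 0.06; 0.00878), and Abhd6, a monoacylglycerol hydrolase (-0.47 ± 0.15; 0.0398), and Pnpla3, a lipid droplet protein (-0.38 ± 0.13; 0.0455), fell. Of 18 transcriptional regulators 0 passed without antibody, with the estrogen-related receptor gene Esrra nearest (-0.82 ± 0.25; adjusted p = 0.0507), and 4 had an unadjusted p under 0.05, a smaller share than among all genes. In the average 4 fell: Esrra (-0.67 ± 0.17; 0.0179), Srebf1 (-0.59 ± 0.18; 0.0345), Mlxipl, which encodes ChREBP (-0.58 ± 0.19; 0.0454), and the liver X receptor gene Nr1h2 (-0.17 ± 0.06; 0.0413).

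In the antibody comparison averaged over diet, 6 of the 87 listed genes tested passed the threshold, where 2.52% of all genes did. Of the 6, 5 were among the 18 regulators, a list chosen with earlier results of these data known. Klf15, a glucocorticoid-responsive factor, fell (-0.55 ± 0.10, SE; adjusted p = 0.00843). Its normalized counts were 2851, 3152, 3058 and 3336 in untreated and 1799, 2136, 2685 and 2067 in antibody control-diet libraries, and the groups did not overlap. On the high-fat diet they were 3231, 2535, 2653 and 2488 without and 2313, 1477, 1722 and 1823 with antibody, again without overlap. The nuclear receptor gene Nr2f2 (0.43 ± 0.07; 0.00843), the glucocorticoid receptor gene Nr3c1 (0.20 ± 0.04; 0.016) and Srebf1, a lipogenic factor (0.80 ± 0.18; 0.0324), rose. Insig2, which holds SREBP proteins in the endoplasmic reticulum, fell (-0.22 ± 0.05; 0.0372) and was named after its value was seen, and Plpp1 fell (-0.36 ± 0.08; 0.0372). 

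In the other 4 comparisons 0 of the 87 listed genes tested passed in limma. The number with an unadjusted p under 0.05 was 15 for diet with antibody, 14 for antibody on the high-fat diet, 11 for antibody on the control diet and 5 in the interaction. These are 17.2%, 16.1%, 12.6% and 5.7% of the listed genes, near the 18.1%, 13.5%, 11.6% and 6.18% of all genes in the same comparisons. On the high-fat diet 9 of these 14 were among the 18 regulators, whose median log2 difference for the antibody was 0.24, with Nr3c1 nearest to the threshold (0.30 ± 0.05, SE; adjusted p = 0.0638). The regulators were listed with earlier results of these data known, so this count describes the list and tests nothing. Aqp11 differed by -0.80 ± 0.20 for diet with antibody (adjusted p = 0.09), close to its -0.84 without. Fitm1, a lipid droplet gene known for its expression in muscle, differed by -5.14 ± 1.12 for diet with antibody (adjusted p = 0.0859). It was measured at 37.6 to 120.8 normalized counts in the antibody control-diet libraries and 0 to 3.94 in the antibody high-fat libraries, whose summed muscle markers were 36302 to 198390 and 167 to 9489. The part of muscle in this difference was not tested.

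Leaving out each library in turn, a check of the listed genes chosen after the data were seen, ended every one of the 8 list calls of the diet comparison without antibody at least once: 0 of all genes passed without replicate 4 of either untreated group. Of the 22 list calls in the averaged diet comparison 10 held in all 16 such fits: Pcx, Mdh1, Aqp11, Pck2, Agpat1, Plpp1, Pcyt2, Plin4, Dgka and Esrra. The highest adjusted p among the other 12 was 0.0938, for Mlxipl without untreated control-diet replicate 4. Without replicate 3 of the untreated control diet and replicate 2 of the untreated high-fat diet, 10 of the 22 passed: Esrra then missed the threshold (adjusted p = 0.0526) and Plin3 kept its call (0.0497), beside the other 9. Of the 6 antibody calls Klf15, Nr2f2 and Nr3c1 held in all 16. The call of Srebf1 ended in 9 of 16 (adjusted p up to 0.0741, without antibody high-fat replicate 2), that of Plpp1 in 10 (0.0857, without untreated high-fat replicate 3) and that of Insig2 in 11 (0.0864, without antibody high-fat replicate 2).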

How the data were processed

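Poly-A RNA from TRIzol and lipid tissue kit extracts was made into stranded libraries, per the labels' protocols. The tools listed in the submitters' processing notes are limma 3.42.2, Subread 1.6.2 with featureCounts, STAR 2.7.0e and fastp 0.20.1, on mm10 or GRCm38. No source used here gives their roles, the normalization or the strand setting. The deposited values are a linear, non-whole signal per gene (normalized counts), so no count model was run and depth is unknown.

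Values were converted to log2(value + 1), which understates changes of low genes. Genes above 24.49 (the median column total divided by 1e6) in at least 4 libraries were tested: 14189, with 1902 left out. limma 3.58.1 in R 4.3.3 fitted 1 mean per group to all 16 libraries with a variance trend (12 residual and 3.07 prior degrees of freedom). There were 7 contrasts, two-sided, with Benjamini-Hochberg adjustment over all genes within each and a threshold of 0.05. Single genes were also tested by exact permutation of 70 assignments. The fit was tested on simulated data that gave each gene the same spread in all groups. That check does not cover groups of unequal spread.

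Replicate numbers are shared by groups in the labels, and whether they mark pairs was not settled. Of 24 same-numbered pairs 10 deviated together at r over 0.1 (range -0.54 to 0.49), among them all 6 pairs of replicates numbered 2. Pairs with different numbers were not set beside this count. The main fit has no replicate block, and results with such a block are given below.

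All 10 genes are named, with the members of each pathway list past the threshold (the 4 with the smallest p where more passed, the 1 nearest where none did) and up to 3 of the most similar genes; some of these are not reported here. The genes and lists were chosen with earlier results of these data known. Coordinates and exon lengths are from GENCODE vM21 on GRCm38.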

Additional observations from a re-analysis of the deposited data

Results flagged for a closer look

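In 40 groups of 4 libraries (10 genes in 4 groups), 2 held a library far from the other 3 by Dixon's test, and chance alone marks about 1 in 20. Dgat1 in antibody control-diet replicate 1 was 9023 normalized counts, where the other 3 libraries lay between 8259 and 8343, a gap of 0.890 of the range in the tightest of the Dgat1 groups. Mogat2 in antibody high-fat replicate 3 was 139.2 normalized counts, where the other 3 lay between 22.42 and 38.66, a gap of 0.861 of the range. The same library was the highest of the 16 for Dgat2, the neighbour of Mogat2 on chromosome 7, at 58288. Over the 16 libraries the log2 values of these 2 genes correlated at Pearson r = 0.350 (Spearman rho = 0.365).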

How the results depend on the processing

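No comparison of the 10 genes that passed changed direction: the 9 calls kept their sign in every alternative, while 25 of the 61 comparisons that did not pass took the other sign in at least 1. For diet without antibody, 4 genes passed; 0 passed with the replicate block, with only the groups compared or without replicate 3 of the untreated control diet and replicate 2 of the untreated high-fat diet, 1 by exact permutation, and 0 to 5 with each library left out. For diet averaged over antibody, 5 passed; 3 passed with columns scaled to the same total, 2 with the replicate block (Dgat1 and Gpam; Agpat2 had an adjusted p of 0.0505), 1 without the same 2 libraries, and 3 to 5 with each library left out. For the antibody on the high-fat diet, 0 passed; 2 passed with array weights, 1 by exact permutation, and 0 to 1 with each library left out. For diet with antibody, 0 passed and 1 by exact permutation. For the antibody averaged over diet, 0 passed, 2 passed with array weights and 0 to 1 with each library left out. Where a setting does not remove libraries, the cause was not tested. Scaling to the same total moved the median of all genes from 0.02 to 0.12 for diet without antibody and to 0.11 in the average. Over all genes, 1157 passed for diet without antibody, against 0 to 4115 with each library left out, 4380 with array weights, 726 without the variance trend, and 0 with only the groups compared or with the replicate block. In the diet average 2757 passed, against 1587 to 4718 with each library left out, 1518 without the same 2 libraries, 1498 with the replicate block and 5119 with array weights. For the antibody 11 passed on the high-fat diet (1 to 271 with each library left out, 1330 with array weights, 2 with the replicate block, 4 with only the groups compared), 14 on the control diet (0 to 75, 757 with array weights, 3 without the variance trend, 2 with the replicate block, 0 with only the groups compared) and 358 in its average (144 to 535, 1958 with array weights, 123 with the replicate block). For diet with antibody 1 passed (0 to 225, 1099 with array weights, 641 with only the groups compared, 246 without the same 2 libraries, 0 with the replicate block), and for the interaction 0 (0 to 1, 1 with the replicate block). Groups share replicate numbers in the labels, and 6 of 16 libraries correlated best with their own number. Whether the numbers mark a shared block was not settled.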
